A study of Mus musculus with 4 samples.

Results

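The H2 genes are the mouse major histocompatibility complex (MHC). All genes whose deposited symbol begins with H2- were taken as members. They number 46 of the 56980 genes in the series: 33 class I genes, 12 class II genes and H2-Ke6, which encodes a steroid dehydrogenase and presents no antigen. The members lie on chromosome 17 between positions 34193607 and 37794472 of GRCm39, and 38 of them are annotated as protein-coding.

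Class I molecules pair a heavy chain with β2-microglobulin and show peptides from the cell's own proteins to CD8 T cells and natural killer cells. H2-K1 and H2-D1 encode the classical heavy chains, while the H2-Q, H2-T and H2-M genes encode non-classical ones. Class II molecules pair an α with a β chain (H2-Aa with H2-Ab1, H2-Ea with H2-Eb1), are guided by the invariant chain Cd74, are loaded with peptide by H2-DM, and are carried mainly by dendritic cells, Langerhans cells, macrophages and B cells. In skin, keratinocytes carry class I and can gain class II under interferon-γ.

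The cells came from the dorsal skin of 4 mouse embryos at E16.5, 1 embryo per library, sorted for Epcam and α6 integrin, which mark epithelial cells that contact the basement membrane. The 2 Ctrl embryos and the 2 TKO (triple knockout) embryos all carried floxed Suv39h1 (Suv39h1 f/f) and floxed Setdb1 (Setdb1 f/f), lacked Suv39h2 (Suv39h2-/-) and were exposed to tamoxifen. Only the TKO embryos carried the K14CreERT2 transgene (K14CreERT2+ against K14CreERT2-), which makes a tamoxifen-activated Cre in keratin 14-expressing cells. These 3 genes encode H3K9 methyltransferases, the study describes the loss as mosaic, and the mice were of mixed background, with no H2 haplotype given for any embryo. Genotype and embryo therefore cannot be told apart at loci where haplotypes differ.

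Each value is a count of unique molecular identifiers (UMIs, 1 per captured RNA molecule), or UMIs scaled to the UMI total of that cell class in that library (CPM, the usual counts per 1e6). After filtering, 10764 of 19789 barcodes were used, of which 2842 to 2987 per Ctrl library and 1561 to 1791 per TKO library were keratinocytes. Keratinocytes held a median of 17329 to 21963 UMIs in Ctrl and 28052 to 30073 in TKO. They were divided into basal-like, suprabasal-like and hair follicle-like cells by marker genes, with H2 and antigen presentation genes left out of the clustering. Although cells were sorted as epithelial, 63 and 97 immune-like cells were found in Ctrl and 248 and 292 in TKO, nearly all of them macrophage-like. Setdb1 was lowered in TKO keratinocytes (log2 change -0.64, SE 0.13, edgeR quasi-likelihood test with Benjamini-Hochberg adjustment, adjusted p = 0.046), while Suv39h1 differed by -0.17 (SE 0.13, adjusted p = 0.482). These 3′ tags may lie outside the deleted exons. Unless stated otherwise, all changes below are log2 TKO over Ctrl from that test on UMI sums per library, called at an adjusted p under 0.05 over all genes tested.

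Promoter sequence is shown for H2-Eb1 and H2-T-ps, the members raised in TKO basal-like cells, for H2-Aa, the class II gene next to H2-Eb1 that did not follow it, and for H2-D1 and H2-K1, the classical class I genes. These are the 250 bases before the RefSeq start (GRCm38.p6, gene strand, 5′ to 3′). Capitals mark the letters CCAAT, TGANGTCA (X2 box) or GGGATTCCC (kappa-B), on either strand.
H2-Eb1, chr17:34305617-34305866, plus strand: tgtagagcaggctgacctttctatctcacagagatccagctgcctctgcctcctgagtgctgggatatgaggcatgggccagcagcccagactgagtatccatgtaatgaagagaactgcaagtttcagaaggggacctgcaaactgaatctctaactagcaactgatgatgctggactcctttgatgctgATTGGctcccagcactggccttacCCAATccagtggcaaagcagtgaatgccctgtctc
H2-Aa, chr17:34287824-34288073, minus strand: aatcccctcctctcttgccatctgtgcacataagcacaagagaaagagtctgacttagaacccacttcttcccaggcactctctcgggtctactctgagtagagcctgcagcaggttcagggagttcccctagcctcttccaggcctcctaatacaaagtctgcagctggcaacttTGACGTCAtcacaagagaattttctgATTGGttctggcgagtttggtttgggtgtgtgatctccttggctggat
H2-T-ps, chr17:36111677-36111926, minus strand: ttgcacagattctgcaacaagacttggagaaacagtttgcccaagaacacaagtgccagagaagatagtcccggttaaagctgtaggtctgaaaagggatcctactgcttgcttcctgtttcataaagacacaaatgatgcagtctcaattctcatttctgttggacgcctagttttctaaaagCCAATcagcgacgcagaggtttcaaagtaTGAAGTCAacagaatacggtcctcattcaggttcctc
H2-D1, chr17:35262844-35263093, plus strand: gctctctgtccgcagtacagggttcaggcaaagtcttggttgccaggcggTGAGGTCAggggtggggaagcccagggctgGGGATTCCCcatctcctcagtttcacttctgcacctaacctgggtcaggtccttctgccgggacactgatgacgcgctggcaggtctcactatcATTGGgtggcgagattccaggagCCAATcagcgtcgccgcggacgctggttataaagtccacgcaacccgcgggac
H2-K1, chr17:34000348-34000597, minus strand: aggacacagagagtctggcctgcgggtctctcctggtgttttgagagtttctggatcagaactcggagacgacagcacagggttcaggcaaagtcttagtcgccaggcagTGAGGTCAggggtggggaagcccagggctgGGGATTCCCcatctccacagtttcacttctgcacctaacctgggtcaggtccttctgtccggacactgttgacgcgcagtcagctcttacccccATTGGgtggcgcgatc

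The table held promoter windows (250 bases before to 50 after a start) for 32 of the member symbols. CCAAT stood in the windows of 29 of these symbols and in 37.4% of all 32851 promoter windows. TGANGTCA was found for 7 member symbols (H2-Aa, H2-D1, H2-K1, H2-Q10, H2-Q6, H2-Q7 and H2-T-ps) and in 8.83% of all windows. In H2-Aa it began at -74, followed by CCAAT at -48, the order of the X2 and Y boxes known from class II promoters. The H2-Eb1 window held CCAAT at -59 and -35 and no TGANGTCA. GGGATTCCC stood in the windows of H2-D1, H2-K1, H2-Q6 and H2-Q7, against 0.353% of all windows, and the interferon response core TTCNNTTTC in those of H2-T22 and H2-T23, against 8.56%. On GRCm39, H2-Eb1 (ENSMUSG00000060586.12) spans positions 34504236 to 34535648 of chromosome 17 on the plus strand, H2-Aa 34493404 to 34506798 on the minus strand, H2-Ab1 (ENSMUSG00000073421.7) 34476663 to 34488393 on the plus strand, and H2-T-ps (ENSMUSG00000073405.7) 36420126 to 36422550 on the minus strand. The GENCODE annotation also gives H2-Eb1 a start further upstream, inside H2-Aa on the opposite strand. Which start was used is not measured by 3′ tags.

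Of the 46 members, 11 had 0 UMIs in every deposited barcode and 12 in the cells used, among them H2-Ea, H2-Eb2, H2-Pa, H2-M1, H2-M11 and H2-M10.1. H2-Ea, the partner of H2-Eb1, is not expressed in the reference strain C57BL/6. The filter on low counts kept 17 members in all keratinocytes (12 class I and 4 class II) and 14 in immune-like cells (8 class I and 5 class II). A further 14 members had UMIs but passed in neither. Over 10% of the transcript-end sequence of 13 members, H2-T-ps, H2-Q5, H2-Q7, H2-Q10, H2-T10, H2-T22 and H2-DMb1 among them, was shared with another gene, so their UMIs may be split or lost.

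Class I UMIs were present in every keratinocyte class of the Ctrl embryos, led by H2-D1. Summed over class I members, basal-like cells held 46.3 and 69.1 CPM, suprabasal-like cells 86.5 and 96.8, hair follicle-like cells 73.0 and 115, and immune-like cells 776 and 904. H2-K1 and H2-D1 together made up 65.4% and 56.4% of class I UMIs in Ctrl keratinocytes and 88.4% and 87.6% in Ctrl immune-like cells. Immune-like cells thus stood above all keratinocyte classes, with no overlap between libraries.

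H2-K1 differed between the keratinocyte classes. It had 35 and 71 UMIs in Ctrl basal-like cells (1.86 ± 0.94 CPM, SD, n = 2), 66 and 127 in hair follicle-like cells (6.25 ± 2.60 CPM) and 320 and 140 in suprabasal-like cells (14.7 ± 2.03 CPM). In 1 model over all classes and libraries (edgeR, Benjamini-Hochberg adjusted), H2-K1 was higher in suprabasal-like than in basal-like Ctrl cells by 3.29 (log2, SE 0.28, adjusted p = 1.26e-06) and higher in hair follicle-like cells by 1.57 (SE 0.31, adjusted p = 0.00296). The first difference was 2.60 without Ctrl replicate 1 and 4.03 without Ctrl replicate 2, and was called in both. The 3 classes did not overlap. H2-D1, from 809 and 1003 UMIs in basal-like cells (31.6 ± 5.70 CPM) and 979 and 570 in suprabasal-like cells (51.7 ± 3.31 CPM), differed by 0.98 (SE 0.17, adjusted p = 0.000405). It differed by 0.17 (SE 0.17, adjusted p = 0.55) in hair follicle-like cells.

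Between suprabasal-like and basal-like Ctrl cells, 11 of the 23 members tested were called, against 50.2% of all genes, a share near that of the members. Besides H2-K1 and H2-D1, the non-classical H2-T22 (1.04) and H2-T23 (0.92), the class II loading gene H2-DMa (0.69) and H2-Ke6 (0.95) were higher in suprabasal-like cells. H2-T23 encodes Qa-1, a ligand of natural killer receptors. H2-Q4 went the other way, with 179 and 273 UMIs in basal-like and 22 and 30 in suprabasal-like cells (-1.84, SE 0.25, adjusted p = 5.96e-05). The sparse H2-M2 (8 and 20 UMIs against 0 and 0) and H2-Q5 (2 and 12 against 0 and 0) were also lower in suprabasal-like cells. H2-Eb1 and H2-Aa were called as higher as well, but on the UMIs of 1 cell, described with the TKO comparison. Without Ctrl replicate 1, only H2-K1 and H2-Q4 remained called, and without Ctrl replicate 2, 5 members.

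In hair follicle-like Ctrl cells, 4 of 23 members were called as higher than in basal-like cells, against 21.4% of all genes in either direction. These were H2-K1, H2-T23, H2-Q7 (7 and 10 UMIs against 0 and 1) and the class II β chain H2-Ab1. H2-Ab1 had 42 and 38 UMIs in basal-like cells (1.39 ± 0.058 CPM), 81 and 14 in suprabasal-like cells and 209 and 236 in hair follicle-like cells (14.5 ± 0.757 CPM). Its difference between hair follicle-like and basal-like cells was 3.21 (log2, SE 0.45, edgeR adjusted p = 0.000335). Both hair follicle-like libraries stood above every other keratinocyte class. H2-Aa, the α chain that H2-Ab1 pairs with, had 0 UMIs in hair follicle-like cells of all 4 libraries. Without either Ctrl library, H2-Ab1 and H2-K1 remained called and H2-T23 and H2-Q7 did not.

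Immune-like cells held more of 12 of the 23 members than basal-like cells in Ctrl, and less of none, against 50.9% of all genes called in either direction. H2-K1 (354 and 422 UMIs) was higher by 7.27 (log2, SE 0.28, edgeR adjusted p = 7.14e-10) and H2-D1 (456 and 727 UMIs) by 3.76 (SE 0.18, adjusted p = 5.57e-09). H2-M3, which presents formylated peptides, had 52 and 48 UMIs in immune-like cells and 2 and 4 in the far larger number of basal-like cells, a difference of 8.36 (SE 0.39, adjusted p = 9.89e-09). H2-Q4 (1.0), H2-T23 (1.44), H2-T24 (2.83) and H2-Q10 (4.62, from 3 and 1 UMIs) were also called, as were H2-K2 (3 and 10 UMIs of its long non-coding RNA entry, against 0 and 0) and H2-DMb2 (0 and 3 UMIs against 0 and 0). H2-Ob, the β chain of the class II loading modulator H2-DO, with 2 and 1 UMIs against 0 and 0, was called only without the filter on low counts. The class II chains H2-Aa (114 and 88 UMIs), H2-Eb1 (102 and 59) and H2-Ab1 (38 and 29) completed the list. Without Ctrl replicate 2, 7 members remained called, H2-K1, H2-D1, H2-M3 and these 3 class II chains among them.

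The class II chains of immune-like cells came from very few cells. In Ctrl replicate 1, 1 cell held all 114 H2-Aa and all 102 H2-Eb1 UMIs, and in Ctrl replicate 2, 1 cell held 87 of 88 H2-Aa and all 59 H2-Eb1 UMIs. In TKO, 2 and 7 cells with at least 10 H2-Aa UMIs held 176 of 176 and 556 of 558 H2-Aa UMIs. These cells held UMIs of the dendritic cell genes Flt3 (4, 1, 4 and 18 in the 4 libraries) and Zbtb46 (1, 0, 6 and 14). Of other myeloid and dendritic cell genes, they held 2, 0, 2 and 25 UMIs of the macrophage receptor Csf1r, 0, 1, 0 and 7 of Itgax, 0, 1, 0 and 1 of Cd209a, 0, 0, 0 and 26 of Ccr7, and 0 of Xcr1 in every library. Cd207, the Langerhans cell lectin, was at 0 in all of them. Of the 7 cells in TKO replicate 2, 5 fell in a cluster named by mast cell markers but had no UMI of the mast cell protease Cpa3.

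**Figure D1:**
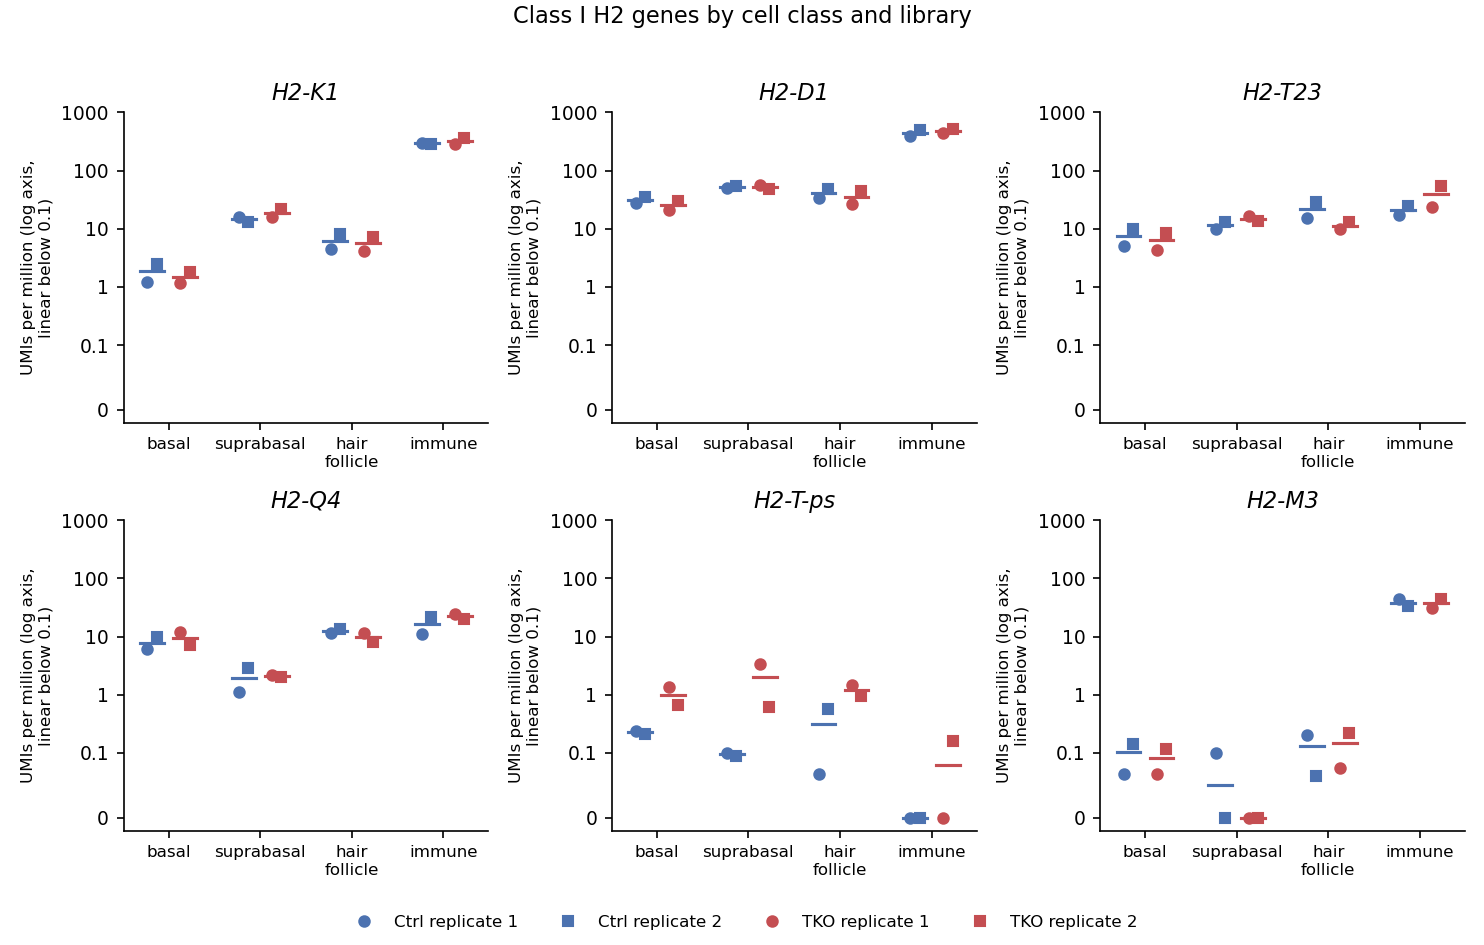
Class I H2 genes, in CPM on a log axis that is linear below 0.1, for basal-, suprabasal-, hair follicle- and immune-like cells. Points are libraries and bars are group means (n = 2). H2-K1 goes from 1.86 CPM in Ctrl basal-like to 295 CPM in Ctrl immune-like cells with little separation of Ctrl and TKO, while H2-T-ps points of TKO lie above those of Ctrl in each keratinocyte class.

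The comparison of TKO with Ctrl asks whether the H2 genes change in the skin cells when the H3K9 methyltransferases are removed. The largest called difference was that of H2-Eb1, a class II β chain. In basal-like cells it had 5 and 3 Ctrl UMIs, and 493 and 175 TKO UMIs (0.139 ± 0.045 and 11.7 ± 6.95 CPM). In hair follicle-like cells it had 11 and 9 Ctrl UMIs, and 620 and 320 TKO UMIs (0.654 ± 0.114 and 35.2 ± 17.1 CPM). The TKO libraries stood far above the Ctrl libraries in both classes, and TKO replicate 1 stood above TKO replicate 2. H2-Eb1 was raised by 6.36 in basal-like cells (log2, SE 0.61, edgeR adjusted p = 0.00372) and by 5.76 in hair follicle-like cells (SE 0.45, adjusted p = 0.000784).

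In suprabasal-like cells H2-Eb1 had 100 and 1 Ctrl UMIs, and 139 and 57 TKO UMIs, and the difference of 2.22 (SE 1.23) was not called (edgeR adjusted p = 0.456). The 100 UMIs of Ctrl replicate 1 all came from 1 cell. That cell also held 97 H2-Aa, 51 H2-Ab1 and 112 Cd74 UMIs, 3 Flt3 and 3 Zbtb46 UMIs, and 473 Krt10 UMIs of the suprabasal keratin. Apart from it, Ctrl suprabasal-like cells held 1 UMI of H2-Eb1, in 1 of the 494 cells of replicate 2. With all keratinocytes that held a UMI of 5 immune genes (Ptprc, Spi1, Tyrobp, Fcer1g, Laptm5) left out, the change in suprabasal-like cells was 8.24 (edgeR adjusted p = 0.0598). On leaving out 1 library in turn it ranged from 0.78 to 6.96, the highest without Ctrl replicate 1, and was not called, so its size is not fixed by these libraries. Without that filter but with predicted doublets kept in the clustering, the log2 change was 7.57 and H2-Eb1 was called (adjusted p = 0.0301).

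Over all keratinocytes together, H2-Eb1 had 116 and 14 Ctrl UMIs, and 1323 and 583 TKO UMIs, and was raised by 4.15 (SE 0.85, edgeR adjusted p = 0.0499). Of the 116 UMIs, 100 came from the same 1 cell. The log2 change ranged from 4.12 to 6.22 under 12 alternatives and from 3.36 to 6.19 on leaving out 1 library, and was highest without keratinocytes that held an immune UMI and without Ctrl replicate 1. The call was lost on leaving out either Ctrl library or TKO replicate 1, where adjusted p-values reached 0.124, and without a filter on low counts, with a minimum of 3000 genes per cell and with uncorrected components (edgeR adjusted p up to 0.092). By contrast, in basal-like and in hair follicle-like cells H2-Eb1 stayed called when each of the 4 libraries was left out in turn. Whether its change differed between classes was tested as an interaction. The change in suprabasal-like against basal-like cells differed by -4.14 (SE 1.64, adjusted p = 0.248), a value that turned to 2.07 without the keratinocytes that held an immune UMI. In hair follicle-like against basal-like cells it differed by -0.57 (SE 1.98, adjusted p = 1). None of the 23 members was called in these interactions, against 1.88% and 0.301% of all genes. Without either TKO library, H2-Eb1 was called as less raised in suprabasal-like than in basal-like cells, so the call depends on the libraries and on the 1 Ctrl cell. The standard errors are wide, so the changes are not shown to be alike either.

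**Figure D2:**
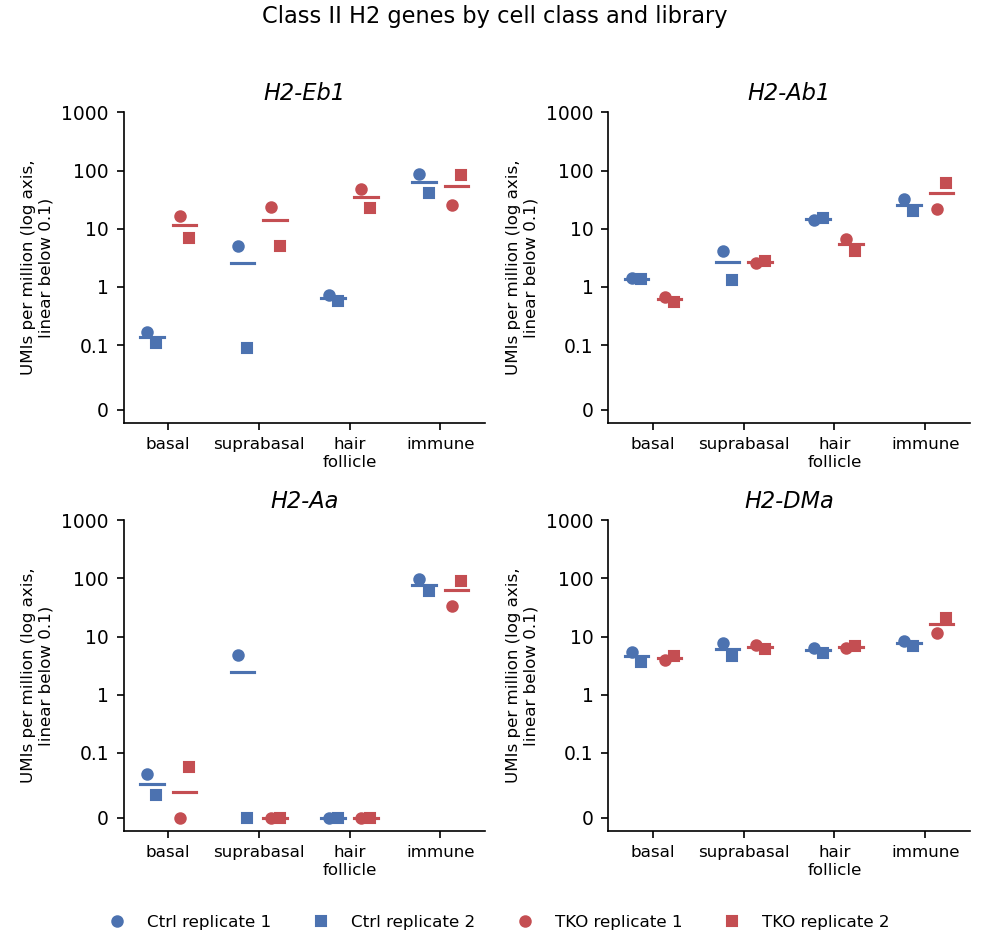
Class II H2 genes, in CPM on a log axis that is linear below 0.1, by cell class. Points are libraries and bars are group means (n = 2). H2-Eb1 is higher in both TKO libraries of basal-like and hair follicle-like cells (means of 11.7 against 0.139 CPM in basal-like cells), H2-Ab1 is lower there, and H2-Aa is near 0 in every keratinocyte class except for the 1 cell of Ctrl replicate 1.

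H2-Ab1 was lowered in hair follicle-like cells, where H2-Eb1 was raised. In hair follicle-like cells, where it was most abundant, it had 209 and 236 Ctrl UMIs, and 88 and 57 TKO UMIs (14.5 ± 0.757 and 5.42 ± 1.84 CPM), and was lowered by 1.39 (log2 change -1.39, SE 0.25, edgeR adjusted p = 0.0126). The call was kept without each library in turn, but was lost with a minimum of 3000 genes per cell, with uncorrected components and at 5000 UMIs per cell (edgeR adjusted p up to 0.173). Of the hair follicle-like cells, 97 and 79 in TKO but 9 and 9 in Ctrl lay in 1 cluster of mostly TKO cells, described below. H2-Ab1 was at 1.12 and 1.71 CPM in these TKO cells. Outside that cluster it was at 14.1 and 15.2 CPM in Ctrl and 8.81 and 4.60 in TKO. The part of this make-up in the change was not tested. The 6 melanocyte markers, 4 of them with a UMI in every library, were also lower in TKO hair follicle-like cells (12.2 and 15.4 against 24.9 and 35.0 CPM). They were higher in TKO suprabasal-like cells (18.5 and 11.4 against 5.70 and 5.98 CPM) and basal-like cells (9.66 and 7.58 against 6.68 and 6.93 CPM). Their part in the H2-Ab1 change was not tested. In all keratinocytes it was lowered as well, from 336 and 290 UMIs to 129 and 104 (-1.20, SE 0.22, adjusted p = 0.0367), but of the 4 fits that left out 1 library only that without TKO replicate 1 kept the call. It was also lost under 6 of 12 other alternatives (no filter on low counts, the replicate number as a block, doublets kept, a minimum of 1000 genes, no keratinocytes with an immune UMI, and 5000 UMIs per cell), with edgeR adjusted p up to 0.105. In basal-like cells, with 42 and 38 Ctrl UMIs, and 20 and 14 TKO UMIs, the change was -1.17 (SE 0.33, adjusted p = 0.0739). In suprabasal-like cells it was -0.12 (SE 0.59, adjusted p = 0.945), from 81, 14, 15 and 32 UMIs. Of the 81, 51 came from the 1 Ctrl cell described above. Without its UMIs H2-Ab1 was at 1.51 and 1.33 CPM in Ctrl and 2.55 and 2.81 in TKO suprabasal-like cells, so the direction there turned to higher in TKO, a difference that was not tested and was looked at after seeing the data.

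The remaining class II members of keratinocytes were not called. H2-DMa, a chain of the peptide exchange factor H2-DM, had 434 and 252 UMIs in Ctrl keratinocytes and 266 and 305 in TKO (-0.02, SE 0.25, adjusted p = 0.969). H2-DMb1, its partner, had 43, 45, 33 and 16 UMIs (-0.63, SE 0.43, adjusted p = 0.427). H2-Aa had 99 and 1 Ctrl UMIs, and 0 and 2 TKO UMIs and did not pass the filter. Of the 323 and 183 TKO keratinocytes with H2-Eb1, 0 had an H2-Aa UMI, which bears on cells with a UMI and not on cells expressing the gene, and the other α chain, H2-Ea, had no UMI in any cell. H2-Ab1 was present in 17 and 13 of them, and Cd74 in 49 and 24.

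The make-up of class II UMIs shifted with H2-Eb1. It made up 2.26% and 1.79% of class II UMIs in Ctrl basal-like cells and 75.7% and 54.3% in TKO. In hair follicle-like cells its share was 3.33% and 2.57% in Ctrl and 77.3% and 67.4% in TKO, in suprabasal-like cells 22.3% (from the 1 cell of replicate 1) and 1.49% in Ctrl and 69.8% and 34.8% in TKO, and in immune-like cells it was 37.9% and 30.6% in Ctrl and 25.6% and 30.5% in TKO. The class II sum was 7.53 and 5.97 CPM in Ctrl basal-like cells and 22.0 and 12.6 in TKO, and 22.1 and 22.3 CPM in Ctrl hair follicle-like cells and 61.2 and 34.3 in TKO. In suprabasal-like cells it was 22.6 and 6.36 CPM in Ctrl and 33.8 and 14.4 in TKO, where the libraries overlapped. Of the 448 class II UMIs of Ctrl replicate 1 there, the 1 cell described above held 100 of H2-Eb1, 97 of H2-Aa and 51 of H2-Ab1. The overlap thus depended on that cell. With uncorrected components the difference of mean log2 sums between TKO and Ctrl fell from 1.31 to 0.42 in basal-like cells and from 1.05 to 0.32 in hair follicle-like cells. No p is given for sums over members, and with 2 against 2 libraries an exact two-sided permutation test cannot go below 0.33.

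Most H2-Eb1 UMIs of the TKO keratinocytes lay in 1 group of cells. A clustering of all cells, again without H2 genes, gave a keratinocyte cluster of 566 cells, 84.5% of them from TKO against 36.5% of all keratinocytes. It was led by Npffr1, Gria3 and Ms4a10, and was picked as the keratinocyte cluster with the largest share of TKO cells. It held 17.1% and 11.8% of TKO keratinocytes but 68.7% and 66.7% of their H2-Eb1 UMIs. Inside it, 173 of 267 and 98 of 211 TKO cells (64.8% and 46.4%) had an H2-Eb1 UMI, at 101 and 58.6 CPM. Of the 49 and 39 Ctrl cells inside it, 0 and 1 had one.

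Outside this cluster H2-Eb1 was still higher in TKO. It had 5 and 3 Ctrl UMIs, and 105 and 27 TKO UMIs in basal-like cells outside the cluster (0.171 and 0.108 against 4.16 and 1.23 CPM), and 11 and 7 against 183 and 113 in hair follicle-like cells (0.743 and 0.449 against 19.2 and 9.81 CPM). The libraries did not overlap in either class. H2-T-ps was at 3.11 and 1.51 CPM in TKO cells inside and 1.41 and 0.589 CPM outside, whereas H2-Ab1 was at 0.778 and 1.51 CPM inside and 2.82 and 1.98 CPM outside. H2-D1 was at 25.9 and 41.1 CPM inside and 27.2 and 37.7 CPM outside. The cluster was formed on genes that differ by genotype and was examined after H2-Eb1 levels were known, so these values are a description.

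**Figure D3:**
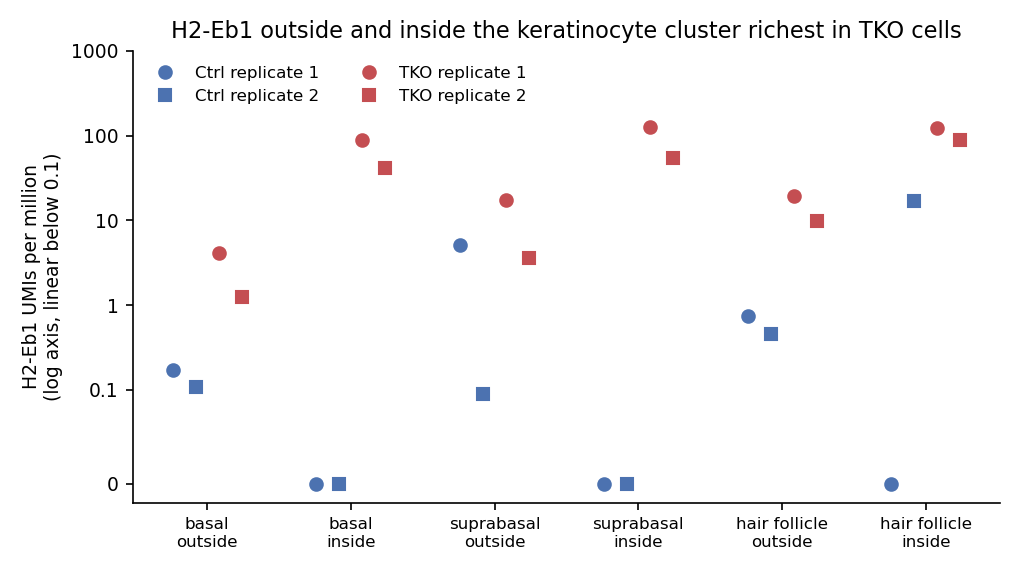
H2-Eb1 in CPM (log axis, linear below 0.1) for each library, in basal-, suprabasal- and hair follicle-like cells outside and inside the keratinocyte cluster richest in TKO cells. TKO points lie highest inside the cluster (88.7 and 41.0 CPM in basal-like cells) and lie above both Ctrl points outside it in basal-like (4.16 and 1.23 CPM) and hair follicle-like cells. Outside it in suprabasal-like cells, Ctrl replicate 1 (5.06 CPM, from 1 cell) lies above TKO replicate 2 (3.61 CPM).

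Counted by cells, and with each cell thinned to 5000 UMIs so that depth was equal, H2-Eb1 was found in 0.177% and 0.17% of Ctrl keratinocytes. In TKO it was found in 9.38% (95% exact binomial interval 7.97 to 10.9) and 3.70% (2.87 to 4.68). These intervals cover counting error only. Without thinning, the shares were 0.457%, 0.435%, 20.7% and 10.2%. Fibroblast-like cells, a type that lacks class II at rest, had H2-Eb1 in 0 of 104, 0 of 103, 1 of 180 and 1 of 125 thinned cells, at median depths of 13103 to 17857 UMIs. The median cell with H2-Eb1 held 3 and 2 UMIs of it in the TKO libraries, and the highest cell 39 and 26.

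UMIs of immune genes were also higher in TKO keratinocytes, where 6 of them (Ptprc, Tyrobp, Fcer1g, C1qa, C1qb, Lyz2) summed to 2.01 and 3.02 CPM in Ctrl and 5.57 and 11.7 in TKO. The list of 7 immune markers summed to 2.64 to 3.43 CPM in Ctrl and 4.21 to 6.66 in TKO keratinocytes, all 7 with a UMI in every library, against 4568 to 5117 CPM in immune-like cells. The 7 endothelial markers were higher in TKO as well, at 13.5 and 16.3 CPM in Ctrl and 32.5 and 23.1 in TKO keratinocytes, and at 18.4 and 19.3 against 39.3 and 25.8 CPM in basal-like cells. In basal-like cells the 7 fibroblast markers were lower in TKO, at 1013 and 809 against 1261 and 1369 CPM. The part of the endothelial and fibroblast markers in the H2 changes was not tested. After thinning, Ptprc was found in 0.0709%, 0%, 0.0642% and 0.0561% of keratinocytes. These shares rest on very few cells and cover Ptprc only, while the sum of the 6 immune genes was higher in TKO. With the keratinocytes that held an immune UMI left out, H2-Eb1 stayed called over all keratinocytes (edgeR adjusted p = 0.00606), and H2-Ab1 did not (adjusted p = 0.0605). That screen did not use C1qa, C1qb or Lyz2. It also removed the Ctrl cell that held 100 of the 116 H2-Eb1 UMIs of its library. The part of that cell, and of remaining immune RNA, in the H2-Eb1 result was not tested.

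**Figure D4:**
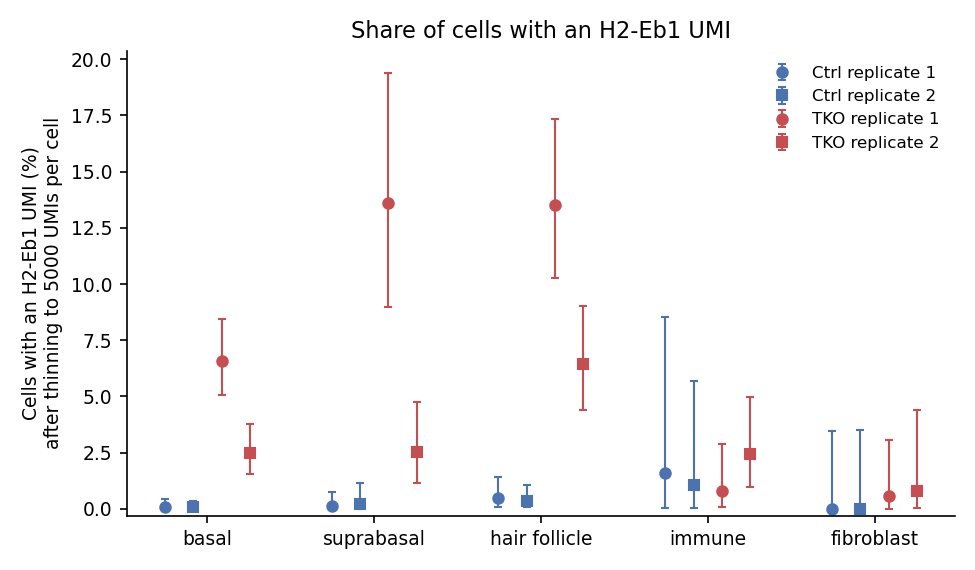
Share of cells with an H2-Eb1 UMI after thinning to 5000 UMIs per cell, by cell class and library, with exact 95% binomial intervals that cover counting error only. The TKO shares in basal-like cells are 6.60% and 2.47% and in hair follicle-like cells 13.5% and 6.43%, with Ctrl shares of at most 0.494% in these classes and fibroblast-like cells at or near 0.

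The classical class I genes H2-D1 and H2-K1 were not called between the genotypes in keratinocytes. Of 17 members tested in all keratinocytes, H2-Eb1 and H2-Ab1 alone were called, against 6.96% of all genes. H2-D1 had 2405 and 2439 Ctrl UMIs, and 1409 and 2065 TKO UMIs (38.9 ± 5.19 and 32.5 ± 7.89 CPM), a difference of -0.27 (SE 0.20, edgeR adjusted p = 0.473). H2-K1 had 441, 350, 218 and 425 UMIs (-0.07, SE 0.33, adjusted p = 0.919). Neither classical gene differed beyond its spread, and the class I sum was 63.7 and 86.4 CPM in Ctrl and 63.5 and 71.2 in TKO. By class, H2-K1 differed by -0.31 in basal-like (SE 0.44), 0.30 in suprabasal-like (SE 0.24) and -0.11 in hair follicle-like cells (SE 0.37). H2-D1 differed by -0.30 (SE 0.22), -0.03 (SE 0.12) and -0.16 (SE 0.26). None of these was called. H2-T23 had 592, 890, 373 and 576 UMIs (-0.45, SE 0.34, adjusted p = 0.464), and H2-T22 had 380, 608, 491 and 265 (-0.20, SE 0.41, adjusted p = 0.805). H2-Q4 had 384, 528, 553 and 331 UMIs (0.15, SE 0.34, adjusted p = 0.822). In all 5 of these genes the CPM ranges of the Ctrl and TKO libraries overlapped. The sparse H2-T10 (64, 10, 10 and 48 UMIs), H2-Q5 (4, 24, 14 and 6), H2-Q7 (7, 11, 16 and 2), H2-T24 (23, 23, 26 and 15) and H2-M2 (12, 29, 16 and 25), and H2-Ke6 (194, 145, 127 and 128), were not called either.

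H2-T-ps, a transcribed class I pseudogene (H2-T11-ps in GENCODE), was called in basal-like cells. It had 7 and 6 Ctrl UMIs, and 40 and 17 TKO UMIs (0.226 ± 0.018 and 1.01 ± 0.486 CPM) and was raised by 2.15 (SE 0.51, edgeR adjusted p = 0.0459). The call was kept on leaving out TKO replicate 2 and lost without any 1 of the other 3 libraries, with log2 changes of 1.57 to 2.54 in these fits. It was also lost with DESeq2 or the replicate number as a block. At 5000 UMIs per cell H2-T-ps was not among the genes tested. In all keratinocytes it had 11, 16, 89 and 38 UMIs (2.43, SE 0.55, adjusted p = 0.062), and in hair follicle-like cells 1, 9, 19 and 13 (1.88, SE 0.74, adjusted p = 0.139). H2-Q2, a non-classical class I gene, had 1 and 3 UMIs in Ctrl keratinocytes and 60 and 14 in TKO (4.33, SE 1.01, adjusted p = 0.0649). Its log2 change ranged from 2.94 to 5.34 on leaving out 1 library. Both were higher in each TKO library than in each Ctrl library, and 16.3% of the transcript-end sequence of H2-T-ps is shared with H2-Q1.

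By class, 2 of 13 members were called in basal-like cells (H2-Eb1 and H2-T-ps) against 12.1% of all genes, and 2 of 13 in hair follicle-like cells (H2-Eb1 and H2-Ab1) against 14.3%. In suprabasal-like cells 0 of 9 members were called by edgeR, against 1.02% of all genes. The shares of members called are near those of all genes. The median change over the members tested was -0.07 in all keratinocytes, beside -0.02 over all genes. H2-T23 in hair follicle-like cells, with 227, 444, 129 and 178 UMIs, missed the threshold (-0.90, SE 0.30, edgeR adjusted p = 0.0903), but was called as lowered with DESeq2, with the replicate number as a block, and without Ctrl replicate 1 or TKO replicate 2. Without TKO replicate 2, H2-Q2 and H2-T-ps were also called as raised in all keratinocytes, and H2-Q2 as raised and H2-D1 as lowered in basal-like cells. That fit holds 1 TKO library only, and it called more of all genes as well.

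Other genes within the H2 complex were counted as well. Of 139 other protein-coding genes between the first and last member, 94 were tested in all keratinocytes, and 4 were raised and 0 lowered, against 6.96% of all genes. They were the complement gene C4b (4.93), the lymphotoxin chain Ltb (2.50), the helicase Dhx16 (0.75) and the mitochondrial ribosomal protein Mrps18b (0.66). In basal-like cells 5 of 85 were raised and 0 lowered, against 12.1% of all genes, Psmb9 and the macrophage gene Aif1 (1.32) among them, beside the immune gene UMIs given above. In hair follicle-like cells 5 of 82 were raised and 1, Rnf39 (-2.20), was lowered, against 14.3% of all genes. H2-Ab1, close to H2-Eb1, was not raised in any class, and H2-Aa, which overlaps the annotated H2-Eb1, had enough UMIs for the TKO comparison in immune-like cells only, where it was not called.

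**Figure D5:**
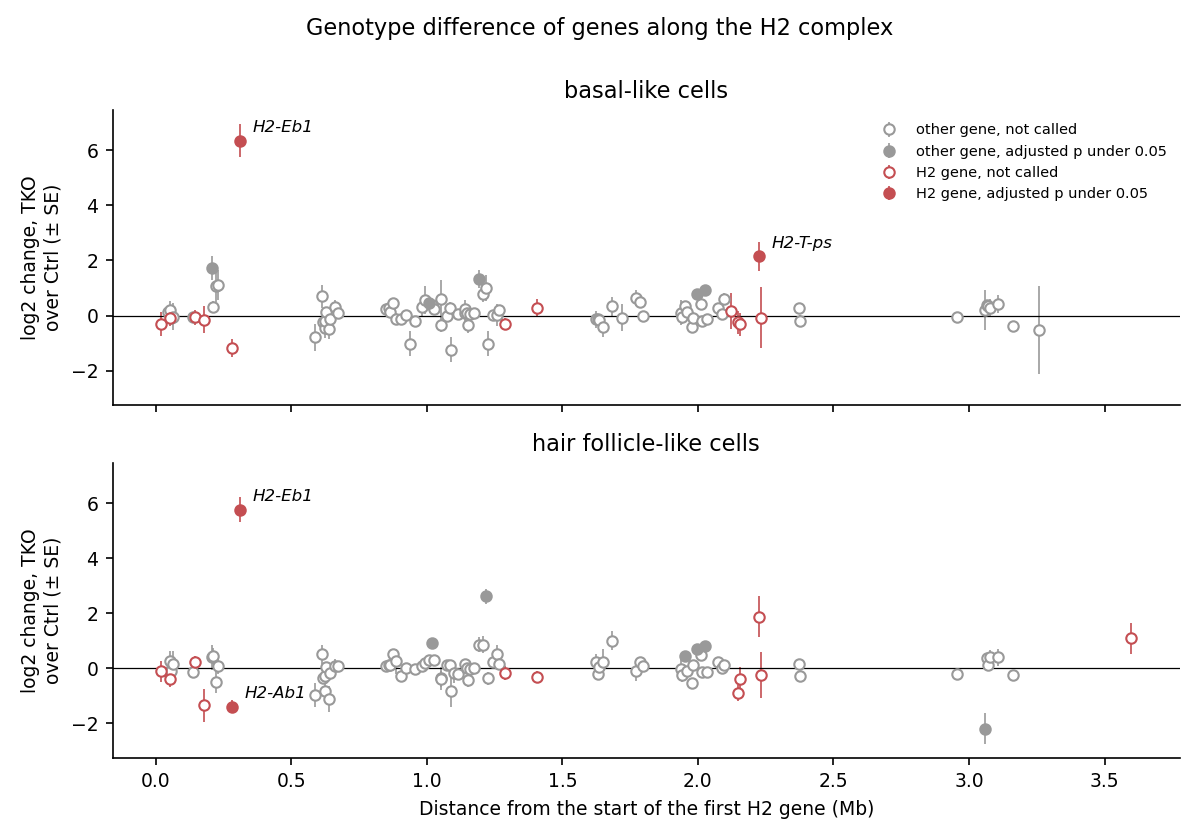
Log2 change (TKO over Ctrl, ± SE) of H2 genes and other protein-coding genes tested in basal-like and hair follicle-like cells, by distance in megabases from the start of the first H2 gene. Filled points passed an adjusted p under 0.05. H2-Eb1 (6.36 and 5.76) stands above all other genes of the region in both classes, beside H2-Ab1 at -1.39 in hair follicle-like cells.

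In immune-like cells, 0 of the 14 members tested were called between TKO and Ctrl by edgeR, and so were 0% of all 11744 genes (684 at an unadjusted p under 0.05, and 1 raised and 19 lowered by DESeq2). H2-K1 had 354, 422, 1476 and 2178 UMIs from unequal numbers of cells, which is 295 ± 6.40 CPM in Ctrl and 321 ± 50.8 in TKO (0.12, SE 0.16, adjusted p = 0.945). H2-D1 was at 444 ± 81.1 and 477 ± 49.8 CPM (0.10, SE 0.19, adjusted p = 0.963), and H2-M3 at 38.6 ± 7.76 and 38.1 ± 9.37 CPM (-0.01, SE 0.26, adjusted p = 1). The 3 main class I genes of immune-like cells thus had overlapping libraries. H2-Q4 (0.43), H2-T22 (0.43), H2-T23 (0.90), H2-T24 (1.63), H2-K2 (-0.12) and H2-Ke6 (-0.70) were not called. Without TKO replicate 1, H2-T23 was called as raised.

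H2-Eb1 in immune-like cells was at 63.5 ± 32.3 CPM in Ctrl and 54.3 ± 40.3 in TKO (-0.20, SE 0.58, edgeR adjusted p = 0.981). The Ctrl and TKO libraries overlapped, as they did in suprabasal-like but not in basal-like or hair follicle-like cells. The suprabasal-like overlap came from 1 Ctrl cell. Without its UMIs H2-Eb1 was at 0 and 0.0949 CPM in Ctrl and 23.6 and 5.00 in TKO suprabasal-like cells. The difference between its change in immune-like and in basal-like cells was -6.23 (SE 1.47, adjusted p = 0.0748) and missed the threshold, and 0 of 23 members were called in that interaction, against 1.01% of all genes. H2-Aa (114, 88, 176 and 558 UMIs, -0.31), H2-Ab1 (38, 29, 114 and 370, 0.68) and H2-DMa (10, 10, 60 and 128, 1.09) were not called. H2-DMb1 had 1, 3, 25 and 68 UMIs (2.38, SE 0.75, adjusted p = 0.782). The direction of H2-Aa, H2-Ab1 and H2-Eb1 in these cells turned on leaving out 1 library, and 1 to 7 cells per library held nearly all of their H2-Aa and H2-Eb1 UMIs.

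The partners of the H2 genes were counted from lists of 15 class I loading genes, 9 class II pathway genes and 12 interferon signalling genes. In all keratinocytes 2 of 15 class I loading genes tested were raised and 1 lowered, against 6.96% of all genes, with a median change of 0.35. B2m, the light chain of class I, had 1890 and 2161 Ctrl UMIs, and 3008 and 3278 TKO UMIs and was raised by 0.84 (SE 0.16, edgeR adjusted p = 0.0412). The chaperone Calr was raised by 0.59 (adjusted p = 0.0281), and the proteasome activator Psme2, with 6568, 5796, 3367 and 3537 UMIs, was lowered (-0.62, adjusted p = 0.0224). Without either Ctrl library or TKO replicate 1 none of the 3 was called. The peptide transporter Tap1 (444, 492, 692 and 519 UMIs, 0.58, adjusted p = 0.181), the immunoproteasome subunit Psmb8 (0.27, adjusted p = 0.666) and Nlrc5, the activator of class I transcription (14, 22, 43 and 85 UMIs, 2.02, adjusted p = 0.0747), were not called.

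In basal-like cells B2m (0.67), Calr (0.71), Canx (0.40) and the immunoproteasome subunit Psmb9 (1.73, from 9, 6, 26 and 22 UMIs) were raised and Psme2 (-0.59) was lowered, 5 of 15 against the 12.1% of all genes. In hair follicle-like cells B2m (0.92), Calr (0.69), Canx (0.49) and the disulfide isomerase Pdia3 (0.57) were raised, 4 of 15 against 14.3%. In suprabasal-like cells 1 of 12 tested was called, Psme2 as lowered (-0.91), against 1.02% of all genes. B2m thus rose in basal-like and hair follicle-like cells without a called change of H2-K1 or H2-D1 there. In suprabasal-like cells B2m differed by 0.77 (SE 0.16, edgeR adjusted p = 0.107) and was not called.

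Of the class II pathway, 0 of 8 genes tested were called in all keratinocytes, against 6.96% of all genes. Cd74, the invariant chain, had 313, 257, 393 and 366 UMIs (0.64, SE 0.17, edgeR adjusted p = 0.091). Of the 313 UMIs, 112 came from the 1 Ctrl cell with 100 H2-Eb1 UMIs. Without them Ctrl replicate 1 was at 2.95 rather than 4.59 CPM. Cd74 was raised in hair follicle-like cells, from 152 and 183 UMIs to 263 and 279 (0.91, SE 0.15, adjusted p = 0.0101). The 6 immune genes summed to 1.54 and 2.74 CPM in Ctrl and 8.47 and 22.1 in TKO hair follicle-like cells, and the 7 immune markers to 1.27 and 2.29 against 6.26 and 8.87 CPM, 5 of them with a UMI in every library. Their part in the Cd74 change was not tested. Ciita, the master activator of class II transcription, had 8, 3, 17 and 8 UMIs in keratinocytes and did not pass the filter. Of the 12 interferon genes 0 were called in all keratinocytes, against the same 6.96%. Ifngr1, a chain of the interferon-γ receptor, was lowered in basal-like cells (822, 853, 169 and 293 UMIs, -1.76, edgeR adjusted p = 0.0208) and in hair follicle-like cells (-1.38, adjusted p = 0.0212), in each case 1 of 11 interferon genes tested, against 12.1% and 14.3% of all genes. In immune-like cells no gene of the 3 lists was called.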

How the data were processed

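Dorsal skin cells of 2 Ctrl and 2 TKO embryos (E16.5 per the labels, although the study's litter list gives its single-cell litter an earlier day) were sorted by the authors, 1 embryo per library, and profiled with the 10x Genomics 3′ kit. The deposited values are raw UMI counts per gene and cell-called barcode, made by the authors with Cell Ranger on GRCm39. The matrix header names version 7.1.0, and the methods name another version. The libraries held 70749496 to 89655247 UMIs.

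Cells with at least 2000 genes and under 10% mitochondrial UMIs were kept (11221), 457 predicted doublets (Scrublet ranking, 0.8% per 1000 barcodes, since its automatic threshold marked 68) were left out, and cells were clustered with scanpy 1.11.5 (2000 variable genes, 30 components, Harmony, Leiden resolution 1) without H2 and antigen presentation genes. Keratinocytes were clustered again without 1386 genes that differed by genotype, and clusters were named from fixed markers. Names were rebuilt here and may differ from those of the study. Of barcodes, 39 occurred in more than 1 library, 7 of them among the cells used.

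UMIs were summed per library and class and tested in R 4.3.3 with edgeR 4.0.16 (filterByExpr, TMM, quasi-likelihood test, Benjamini-Hochberg over all genes), where SE is the absolute log2 change over the square root of F. Class contrasts used 1 model over 16 sums with library, class and class by genotype; the hair follicle contrast and the inside-outside description were added after seeing the data. DESeq2 1.42.0, other filters, clusterings and left-out libraries were alternatives. The tests were checked on simulated counts, where many small changes were not called and unchanged genes made up more of the calls than the threshold allows, most so in all keratinocytes. Calls near the threshold are uncertain accordingly, and a gene not called may still differ.

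Members and lists were chosen with earlier results of these data known. Named were members that passed the filter in keratinocytes or immune-like cells or were called in any fit, and of the pathway lists the called genes and B2m, Tap1, Psmb8, Nlrc5, Cd74 and Ciita. Replicates are separate embryos. A count of 0 allows up to 3 UMIs, for counting error only. Transcript ends were compared in GENCODE vM39, in words of 90 bases over the last 500 bases.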

Additional observations from a re-analysis of the deposited data

Results flagged for a closer look

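H2-Eb1 UMIs were also found in cell classes outside the comparisons above, and were singled out because both TKO libraries lay above both Ctrl libraries. In Merkel-like cells it had 31 UMIs in the 13 cells of TKO replicate 1 and 23 in the 8 cells of TKO replicate 2, and 0 in the 33 and 24 cells of the Ctrl libraries. Which TKO cells count as Merkel-like depends on the clustering. With uncorrected components no TKO cell was named so, against 32 and 23 Ctrl cells, and in the clustering of all cells the Merkel-like cluster held 4 and 6 TKO cells, with 9 and 11 H2-Eb1 UMIs. In melanocyte-like cells it had 33 UMIs in TKO replicate 1, in 6 of 33 cells, and 19 UMIs in TKO replicate 2, in 6 of 19 cells. The 6 and 3 melanocyte-like Ctrl cells had 0. These differences were not tested. The melanocyte-like cluster held 7398 CPM of keratinocyte keratins. That is within the range of hair follicle-like clusters (4291 to 18950) and above the fibroblast-like clusters (282 and 463). The part of keratinocyte RNA in the H2-Eb1 UMIs of melanocyte-like cells was not tested.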

How the results depend on the processing

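H2-Eb1 was called as raised in basal-like and in hair follicle-like cells under all 12 alternatives run for each and without each library in turn, with log2 changes of 4.24 to 6.60 and 4.72 to 5.81 under those alternatives. Without 1 library the changes were 5.61 to 6.85 and 5.17 to 6.18. The calls over all genes moved with the setting as well. In all keratinocytes 863 genes were raised and 524 lowered. They were 451 and 285 without a filter on low counts, and 1547 and 1107 with DESeq2. In basal-like cells 1347 were raised and 741 lowered, against 1800 and 1323 without that filter and 1582 and 967 with DESeq2. Fits without 1 library hold 1 library in a group, and their calls over all genes also moved. The number of H2 genes called moved more than the H2-Eb1 result, and the cause was not tested. In all keratinocytes 2 were called, against 0 without a filter on low counts, 1 with doublets kept, with a minimum of 1000 or 3000 genes per cell, with uncorrected components, without keratinocytes that held an immune UMI or at 5000 UMIs per cell, 4 with DESeq2, and 0 to 3 on leaving out 1 library. In basal-like cells 2 were called, against 1 with DESeq2 or at 5000 UMIs, 3 without the filter, with 3000 genes, with uncorrected components or at Leiden resolution 0.5, and 1 to 4 without 1 library. In suprabasal-like cells 0 were called, against 3 without the filter and 1 with doublets kept. In hair follicle-like cells 2 were called, against 1 with 3000 genes, uncorrected components or 5000 UMIs, 3 without the filter or with DESeq2, and 2 to 3 without 1 library. In immune-like cells 0 were called, against 2 without the filter and 0 to 1 without 1 library. Of the antigen presentation genes 3 were called, against 8 with DESeq2 and 0 to 4 without 1 library. The interaction of genotype with suprabasal-like cells had 0 calls, against 2 without the filter and 0 to 1 without 1 library.

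Between suprabasal-like and basal-like Ctrl cells 11 were called, against 7 with doublets kept or 1000 genes, 5 at 5000 UMIs and 2 to 11 without 1 library. The immune-like contrast ranged from 7 to 13 and the hair follicle-like contrast from 2 to 4 without 1 library. Values resting on the 1 Ctrl cell with 100 H2-Eb1 UMIs turned. The suprabasal-like against basal-like difference of H2-Eb1 was -1.29 with doublets kept, -2.28 with 1000 genes and -1.69 without cells with an immune UMI. That of H2-Aa was -3.04, -2.96 and -2.37, and -2.31 to 6.28 without 1 library. The interaction of H2-Eb1 was 1.53, 1.45 and 2.07, and -4.83 to 0.26 without 1 library. In immune-like cells H2-Aa turned to 0.29 and H2-Eb1 to 0.27 with 3000 genes, and without 1 library they ranged from -1.21 to 0.23 and from -1.29 to 0.41. H2-Ab1 turned to -0.96 in macrophage-like cells alone, -0.13 with doublets kept, -0.12 with 1000 genes, and ranged from -0.24 to 1.23 without 1 library.

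The class II sum (log2 ratio) was 1.31 in basal-like cells, against 0.42 with uncorrected components, and 1.05 in hair follicle-like cells, against 0.32 with 3000 genes or uncorrected components and 0.43 at Leiden resolution 2. In immune-like cells it was -0.07, against 1.60 with 3000 genes. Thinned shares of keratinocytes with a class II UMI were 5.70% in Ctrl and 10.0% in TKO, and 17.5% and 31.1% at full depth.

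Same-numbered replicates are separate embryos and did not deviate together (r = -0.254 over 19936 genes). With the replicate number as a block, 1 H2 gene was called in all keratinocytes, 1 in basal-like cells and 3 in hair follicle-like cells, where H2-T23 was lowered besides H2-Ab1, and over all genes of keratinocytes 580 were raised and 386 lowered, against 863 and 524. With the replicate block crossed, an alternative chosen after seeing the data, 4 H2 genes and 9 antigen presentation genes were called in keratinocytes. Over all genes 1957 were then raised and 1601 lowered, against the same 863 and 524. DESeq2 raised 1547 and lowered 1107 genes of keratinocytes. Sparse members limit precision, since 14 with UMIs passed neither filter.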
